A study of Mus musculus with 12 samples.

Results

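The messenger RNA of 7 C-type lectin receptors was compared in mouse leukemia cells recovered from 3 kinds of host. The genes were Clec4a2, Clec12a, Clec4e, Clec4d, Clec4n, Clec5a and Clec7a. They were taken by name, as myeloid receptors of this family that read sugars, lipids and debris on microbes and damaged cells, and all 7 were found among the 55401 genes of the table. The cells were bone marrow cells transformed by MLL-AF9, a fusion of the MLL (KMT2A) and AF9 genes that drives acute myeloid leukemia (AML), and they also carried GFP. They had been passed more than 10 times through mice without irradiation and were then given to young adult female hosts. WT hosts were C57BL/6 mice with a normal immune system. Rag2-/- hosts were of the strain C57BL/6J-Rag2em3Lutzy/J, which has no mature T or B cells and keeps its NK cells. NSG hosts are also without NK cells and come from another inbred background, so that the host genome and the missing NK cells cannot be told apart in any comparison with NSG. The Rag2 mutation lay in the host and not in the leukemia, so the level of Rag2 in the sorted cells does not check the labels. GFP+ cells were sorted from moribund mice, and 4 libraries were made for each host, labelled as biological replicates. The RNA methods of the study do not name the tissue. All the libraries descend from one leukemia line, and the spread between libraries is the spread between hosts carrying it.

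C-type lectin receptors signal along opposite routes. Clec4e (Mincle), Clec4d (MCL) and Clec4n (Dectin-2) associate with the adaptor Fcer1g, Clec5a (MDL-1) pairs with Tyrobp (DAP12) and Hcst (DAP10), and Clec7a (Dectin-1) carries an activating motif in its own tail. All of these recruit the kinase Syk, which acts through Card9, Bcl10 and Malt1 on NF-kB. Clec4a2 (DCIR) and Clec12a (MICL) carry inhibitory motifs that bind the phosphatases Ptpn6 and Ptpn11. In the bone marrow these receptors are known from monocytes, neutrophils, macrophages and dendritic cells, and CLEC12A is also a surface antigen of human AML blasts.

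All 7 genes lie on chromosome 6 (build GRCm38, GENCODE M21 annotation), and each value given here counts reads over all annotated exons of the gene. Clec4a2 (ENSMUSG00000030148, 123106428 to 123143999), Clec4n (ENSMUSG00000023349, 123229843 to 123247021) and Clec4d (ENSMUSG00000030144, 123262111 to 123275265) are read from the plus strand. Clec4e (ENSMUSG00000030142, 123281789 to 123289870) follows on the minus strand. Clec12a (ENSMUSG00000053063, 129342691 to 129365303, plus strand) and Clec7a (ENSMUSG00000079293, 129461591 to 129472779, minus strand) lie farther along, and Clec5a (ENSMUSG00000029915, 40574894 to 40585821, minus strand) lies far from both groups. RefSeq gave the sequence before a start site for 6 of the 7 genes (GRCm38.p6), with Clec4n named only. The sequences of 3 are shown, because Clec4a2 and Clec5a were the receptors whose 4 Rag2-/- libraries all lay above the 4 WT libraries, and Clec4e is an activating receptor of the same cluster as Clec4a2 whose libraries overlapped. Each runs 5' to 3' toward the start site and stops before the first annotated exon met within the 250 bases, if any, which need not be the first exon of the gene. Clec4a2 is chr6:123122440-123122621 on the plus strand, and this RefSeq start lies inside the longer GENCODE gene. Clec5a is chr6:40585822-40586055 and Clec4e is chr6:123289872-123290121, both on the minus strand. Capitals mark matches on either strand to GAGGAA (the core bound by PU.1, a myeloid transcription factor), TTGCNNAA (C/EBP) or TGANTCA (AP-1).
Clec4a2: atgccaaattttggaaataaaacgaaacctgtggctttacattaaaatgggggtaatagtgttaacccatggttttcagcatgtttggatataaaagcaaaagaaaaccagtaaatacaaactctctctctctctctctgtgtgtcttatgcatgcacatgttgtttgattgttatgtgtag
Clec5a: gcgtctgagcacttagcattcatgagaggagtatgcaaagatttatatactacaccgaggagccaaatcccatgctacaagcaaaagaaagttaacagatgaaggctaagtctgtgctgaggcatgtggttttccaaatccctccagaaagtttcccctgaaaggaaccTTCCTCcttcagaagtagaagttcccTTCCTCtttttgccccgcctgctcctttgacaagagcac
Clec4e: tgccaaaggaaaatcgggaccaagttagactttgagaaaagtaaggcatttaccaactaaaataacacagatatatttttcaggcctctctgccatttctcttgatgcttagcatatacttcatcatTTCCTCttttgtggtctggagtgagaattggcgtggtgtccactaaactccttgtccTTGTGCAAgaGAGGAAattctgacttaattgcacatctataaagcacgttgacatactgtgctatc
Over 250 bases before the start, GAGGAA stood at 2 places for each of Clec5a, Clec4e and Clec12a and at 1 place for Clec4d and Clec7a, and the Clec4a2 window held none of the 3 motifs. At least 1 GAGGAA was thus found for 5 of the 6 genes, against 23.3% of all 32851 RefSeq windows of that length. TTGCNNAA stood before Clec4e and Clec12a (9.56% of all windows) and TGANTCA before Clec12a (6.75%). Like that of Clec4a2, the Clec12a window (chr6:129349994-129350243) lies inside the GENCODE gene, and its first base falls in an annotated exon. These are letter matches only, and no binding was measured.

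The values are TPM, transcripts per 1000000, in which a gene's reads are divided by its length and every library adds up to the same total. The spacing of low values gave back the read numbers behind them, from 16041007 to 42917570 reads a library with each mate of a pair counted. On that count of single mates, coverage ran from 38.1 to 130.3 recovered reads a library for Clec4n, the thinnest, to between 1711 and 6931 for Clec12a. The 10 leukemia markers, among them Hoxa9, Meis1 and Myb, were present in every library and summed to between 1290 and 1449 TPM. Markers of other cells were given beside them, since neutrophils and monocytes express these receptors too. The 7 receptors and all gene lists were chosen with earlier results of these data known. Their counts beside the shares of all genes are therefore a description and not independent evidence. The 15 neutrophil markers summed to 1119 to 1418 TPM in WT, 1483 to 1585 in NSG and 2092 to 4084 in Rag2-/-. In limma, 12 of 15 were higher in Rag2-/- than in WT (adjusted p below 0.05 and log2 fold change beyond 0.5), beside 1.14% of all genes. Against NSG, 8 of 15 were higher, beside 0.193% of all genes. The 12 macrophage markers summed to 117 to 135 TPM in WT, 139 to 156 in Rag2-/- and 89.0 to 143 in NSG, with Marco at 0 in WT and NSG. Of the 8 tested, 1 was higher in Rag2-/- against WT (C1qc) and 1 against NSG (Axl), beside the same shares of all genes. The sum of the 7 monocyte markers was lower in Rag2-/- (1535 to 1889 TPM) than in WT (2020 to 2134 TPM), and was 1446 to 1941 TPM in NSG. Estimates were below 0 for 6 of 7 against WT and above 0 for 5 of 7 against NSG. Only Ly6c2 was called, lower than in WT, beside 0.326% of all genes. Ccr2 (means of 383 in WT and 381 TPM in Rag2-/-) and Csf1r (115 TPM in both) hardly differed, and Nr4a1 had means of 8.61 and 12.7 TPM. Dendritic cell, T and NK cell, B and plasma cell and erythroid markers stayed at summed levels of 28.0 TPM or less. Igkc was called lower in Rag2-/- than in WT (0.326% of all genes), and Cd3e, Trac and Ms4a1 were at 0 in every library. Ncr1, a gene of NK cells, was at 0 in WT and NSG and at 0.108 to 0.531 TPM in Rag2-/-. Gzma was at 0 in WT, 0.624 to 2.39 TPM in Rag2-/- and 0 to 1.67 TPM in NSG. Nkg7, the 1 tested T and NK cell marker, had means of 5.93, 3.49 and 5.19 TPM in WT, Rag2-/- and NSG and was not called. In sorted bulk RNA, fewer cells of one kind and less RNA in each cell cannot be told apart.

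All 7 receptor genes were expressed in the leukemia from every host. In WT, Clec12a had the highest mean, at 98.0 ± 13.5 TPM (SD, n = 4), and Clec4n the lowest, at 9.66 ± 1.60 TPM. Between them stood Clec4a2 (78.0 ± 11.7 TPM), Clec4e (62.6 ± 3.70 TPM), Clec7a (48.2 ± 6.15 TPM), Clec5a (17.8 ± 3.44 TPM) and Clec4d (17.5 ± 4.56 TPM). The WT ranges of Clec12a and Clec4a2, of Clec4a2 and Clec4e, and of Clec5a and Clec4d overlapped, while the other neighbors in this order did not. In Rag2-/- the inhibitory receptor Clec4a2 came first at 113 ± 8.87 TPM, and its lowest library lay above the highest for Clec12a (79.4 ± 21.1 TPM). In NSG the libraries of Clec12a (99.0 ± 30.9 TPM) and Clec4a2 (95.7 ± 5.54 TPM) overlapped again. The 7 genes together held 286 to 356 TPM in WT, and the ranges in Rag2-/- (318 to 413 TPM) and NSG (336 to 376 TPM) overlapped it.

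**Figure D1:**
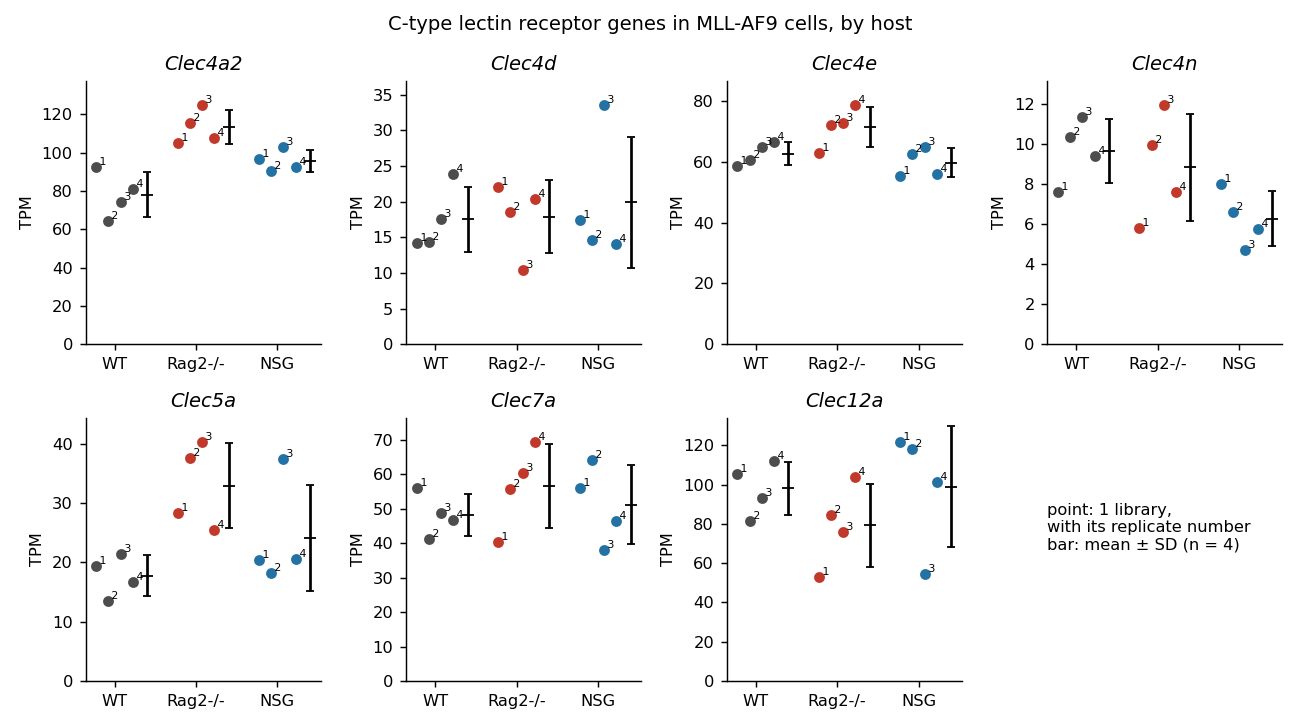
TPM of each receptor gene (y axis, from 0) in the 3 hosts (x axis), 1 point a library with its replicate number and a bar for the mean ± SD of 4 libraries. The 4 Rag2-/- libraries lie above the 4 WT libraries for Clec4a2 (105 to 125 against 64.5 to 92.4 TPM) and Clec5a (25.6 to 40.4 against 13.5 to 21.4 TPM), and overlap them for the other 5 genes.

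Of the inhibitory receptors, Clec4a2 was higher in Rag2-/- than in WT and Clec12a was not called. Clec4a2, which dampens signals from other receptors in myeloid cells, read 92.4, 64.5, 74.4 and 80.8 TPM in the WT libraries 1 to 4. It read 105, 115, 125 and 108 TPM in Rag2-/- and 96.9, 90.2, 103 and 92.7 TPM in NSG. Every Rag2-/- library was above every library from WT and from NSG, and the NSG libraries lay between the other hosts apart from an overlap with WT library 1. The log2 fold change between Rag2-/- and WT was 0.54 (SE 0.096, 95% confidence interval 0.33 to 0.75, a fold of 1.45 on TPM + 1), with an adjusted p of 0.0170 in limma. Against NSG the difference was 0.24 (interval 0.03 to 0.45, adjusted p = 0.315 in limma), which did not pass. Among the Rag2-/- libraries the summed neutrophil markers ran 3415, 3665, 4084 and 2092 TPM for libraries 1 to 4. Library 4, with the fewest, was the third of 4 for Clec4a2, and its sum still exceeded the highest of WT (1418 TPM) and NSG (1585 TPM). The part of these markers in the Clec4a2 difference was not tested. Without WT library 2, Rag2-/- library 2 or Rag2-/- library 3 the call was lost (adjusted p = 0.0513, 0.0570 and 0.0641 in limma, log2 fold changes 0.45, 0.53 and 0.49). It held when any other single library was left out.

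Clec12a, an inhibitory receptor for crystals and dead cells, read 106, 81.6, 93.1 and 112 TPM in WT. It read 53.1, 84.4, 76.0 and 104 TPM in Rag2-/- and 122, 118, 54.5 and 101 TPM in NSG. The hosts overlapped, and the lowest libraries were Rag2-/- library 1 and NSG library 3. The log2 difference between Rag2-/- and WT was -0.33 (interval -0.87 to 0.21, adjusted p = 0.478 in limma), so a fall or a small rise both lay within its error. The ratio of Clec4a2 to Clec12a in the same library was 0.722 to 0.876 in WT and 1.04 to 1.98 in Rag2-/-. In NSG it was 0.763, 0.796 and 0.914 in libraries 2, 1 and 4 and 1.89 in library 3. The ratio was formed after the values were seen and carries no test.

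The 3 receptors that work with Fcer1g, all in the same gene cluster as Clec4a2, showed no called difference between hosts. Clec4e, which senses mycobacterial glycolipid and the nuclear protein Sap130 from dead cells, read 58.6, 60.4, 65.0 and 66.5 TPM in WT. It read 62.8, 72.0, 72.8 and 78.7 TPM in Rag2-/- and 55.3, 62.6, 64.7 and 55.9 TPM in NSG. Its SD relative to the mean in WT was the smallest of the 7 genes (5.91%), and 3 of 4 Rag2-/- libraries lay above all WT and above all NSG libraries. Its log2 differences were 0.19 against WT (interval 0.02 to 0.36, adjusted p = 0.197 in limma) and 0.26 against NSG (interval 0.09 to 0.43, adjusted p = 0.176), and neither passed.

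Clec4d, the partner that brings Clec4e to the cell surface, read 14.2, 14.4, 17.6 and 23.9 TPM in WT. It read 22.1, 18.6, 10.5 and 20.4 TPM in Rag2-/- and 17.4, 14.6, 33.6 and 14.0 TPM in NSG. The hosts overlapped, with the lowest of the 12 values in Rag2-/- library 3 and the highest in NSG library 3. The log2 difference between Rag2-/- and WT was 0.01, with an interval of -0.61 to 0.63 (adjusted p = 0.990 in limma) that leaves room for a change of either sign; its sign turned under quantile normalization and median-ratio scaling. Clec4n, the receptor for fungal mannans, read 7.59, 10.3, 11.3 and 9.38 TPM in WT. It read 5.79, 9.95, 11.9 and 7.61 TPM in Rag2-/- and 7.98, 6.61, 4.73 and 5.73 TPM in NSG. Rag2-/- and WT overlapped (log2 difference -0.15, interval -0.59 to 0.30, adjusted p = 0.724 in limma), and 3 of 4 NSG libraries lay below all WT libraries. The difference between NSG and WT was -0.56 (interval -1.0 to -0.12), at an unadjusted p of 0.0173 and an adjusted p of 0.469 in limma.

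Clec5a gave the largest estimate of the 7 between Rag2-/- and WT. This receptor of monocytes and neutrophils, which binds flavivirus glycans, read 19.5, 13.5, 21.4 and 16.6 TPM in WT. It read 28.3, 37.6, 40.4 and 25.6 TPM in Rag2-/- and 20.5, 18.2, 37.5 and 20.6 TPM in NSG. All Rag2-/- libraries were above all WT libraries, and in NSG library 3 alone stood at the Rag2-/- level. The log2 difference between Rag2-/- and WT was 0.85 (SE 0.22, interval 0.37 to 1.33, a fold of 1.80), at an adjusted p of 0.0570 in limma, and was not called. It was called, at adjusted p values from 0.0174 to 0.0484, without NSG library 3, with the 8 libraries of the comparison fitted alone, with genes at 1 TPM or more in every library and in voom on recovered reads. The adjusted p was 0.112 with all genes above 0, and 0.167, 0.137 and 0.177 without WT library 2, Rag2-/- library 2 and Rag2-/- library 3. The Clec5a values of the Rag2-/- libraries stood in the same order as their summed neutrophil markers (library 3, then 2, 1 and 4). In WT and in NSG the 2 orders differed. NSG library 3, the highest of its host for Clec5a, had a neutrophil marker sum of 1495 TPM, within the NSG range of 1483 to 1585 TPM. The part of these markers was not tested. Against NSG the difference was 0.47 (interval -0.01 to 0.94, adjusted p = 0.415 in limma), and without NSG library 3 it was 0.69 (adjusted p = 0.0929).

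Clec7a, the receptor for fungal beta-glucan, read 56.1, 41.2, 48.7 and 46.8 TPM in WT. It read 40.5, 55.9, 60.4 and 69.5 TPM in Rag2-/- and 56.1, 64.3, 38.0 and 46.4 TPM in NSG. The 3 hosts overlapped, and the Rag2-/- libraries held both the second lowest and the highest value. The log2 difference between Rag2-/- and WT was 0.21 (interval -0.18 to 0.59, adjusted p = 0.541 in limma), and that between Rag2-/- and NSG was 0.14 (interval -0.24 to 0.53, adjusted p = 0.808).

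A receptor was called where limma, fitted to log2(TPM + 1) of 15026 genes in all 12 libraries, gave an adjusted p below 0.05 and a log2 fold change beyond 0.5. Between Rag2-/- and WT, 1 of 7 receptors was called higher (Clec4a2) and 0 lower. Of all genes tested, 1.14% were called higher and 0.326% lower. A positive estimate was found for 5 of 7 receptors, beside 54.5% of all genes, an unadjusted p below 0.05 for 3 of 7 (20.9% of all genes), and the median over the receptors was 0.19 against 0.02 over all genes. Non-overlapping libraries with Rag2-/- on top were seen for 2 of 7, beside 10.2% of all genes, and with Rag2-/- below for 0 of 7, beside 6.72%. With so few members, 1 call in 7 and 2 separations in 7 are described only. Between Rag2-/- and NSG, 0 of 7 were called in limma and 0 in voom, while 0.193% of all genes were called higher and 0.02% lower. An unadjusted p below 0.05 was reached by 2 of 7 (Clec4a2 and Clec4e), beside 12.6% of all genes, and the median was 0.24 against 0.01 over all genes. The estimate was positive for 5 of 7 (53.4% of all genes), and the libraries separated with Rag2-/- on top for 1 of 7, Clec4a2 (4.34% of all genes), and below for 0 of 7 (2.25%). Both comparisons use the same Rag2-/- libraries, so their values are given side by side and are not separate evidence.

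**Figure D2:**
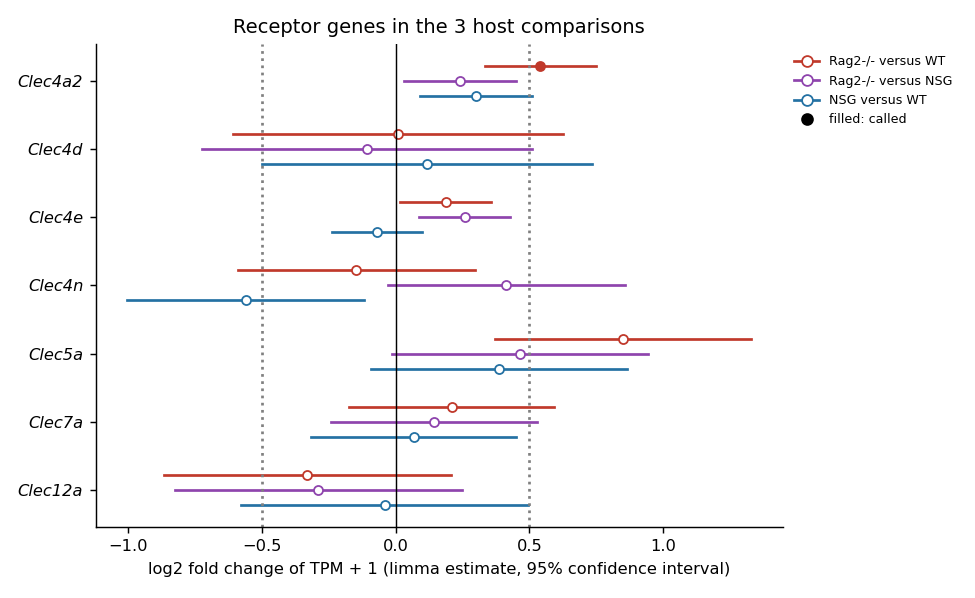
Log2 fold change of TPM + 1 (x axis) of the 7 receptor genes (y axis) in the 3 host comparisons, as the limma estimate (point) with its 95% confidence interval (line), a filled point for a called gene and dotted lines at the fold limit of 0.5 in either direction. Only Clec4a2 in Rag2-/- versus WT is filled, at 0.54, and the interval of Clec5a in that comparison runs from 0.37 to 1.33.

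NSG against WT is also the difference between the other comparisons, and asks whether the receptor changes seen against WT and against NSG differ. None of the 7 receptors was called in limma or voom, and in limma 0% of all genes were. The estimate was positive for 4 of 7 (51.5% of all genes), and no receptor had all NSG libraries above (2.21% of all genes) or below (2.38%) those from WT. The unadjusted p was below 0.05 for 2 of 7, beside 9.16% of all genes. These were Clec4a2, 0.30 higher in NSG (interval 0.09 to 0.51, adjusted p = 0.422 in limma), and Clec4n. For Clec5a the estimate was 0.39 (interval -0.09 to 0.86) and became 0.16 without NSG library 3. The estimates of Clec4e, Clec4d, Clec7a and Clec12a lay between -0.07 and 0.12.

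Some libraries stood away from their host mean for several receptors at once. NSG library 3 stood 0.82 above its host mean in log2(TPM + 1) for Clec4d and 0.67 above for Clec5a, and 0.78 below for Clec12a, 0.39 below for Clec7a and 0.32 below for Clec4n. Its monocyte marker sum (1446 TPM) and macrophage marker sum (89.0 TPM) were the lowest of the 4 NSG libraries, and its neutrophil marker sum (1495 TPM) was within the range of the others. Rag2-/- library 1 lay below its host mean for 6 of the 7 receptors, by 0.53 for Clec12a, 0.49 for Clec4n and 0.45 for Clec7a, and 0.34 above it for Clec4d. The spread of these genes in Rag2-/- had another end too, with library 4 above the mean by 0.43 for Clec12a and 0.32 for Clec7a, and library 3 by 0.44 for Clec4n. Clec4a2 and Clec4e were steady, with no library more than 0.26 and 0.18 from its host mean.

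**Figure D3:**
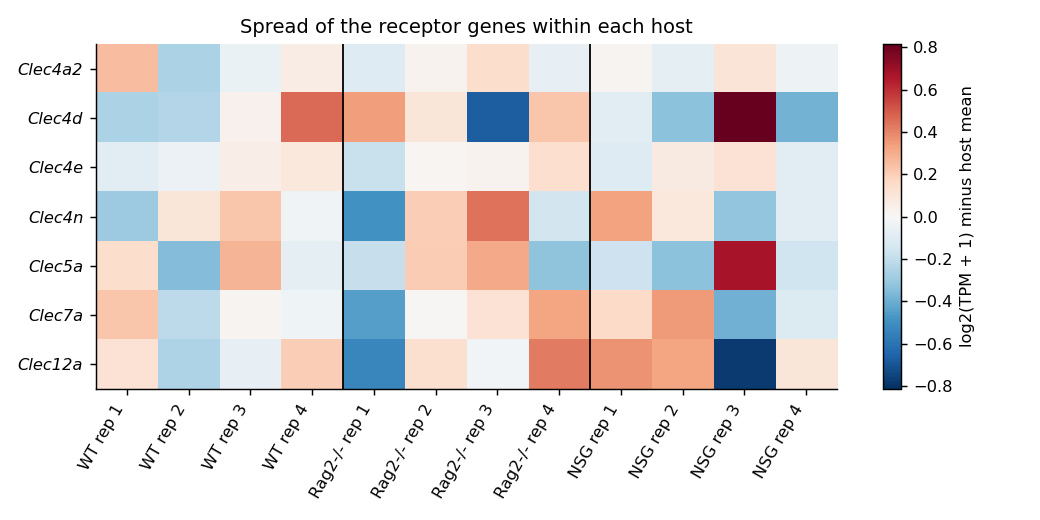
Log2(TPM + 1) of each receptor gene (rows) in each library (columns) minus the mean of its own host, in red above and blue below that mean, with black lines between hosts. NSG library 3 has the darkest cells, from 0.82 for Clec4d to -0.78 for Clec12a, while the rows of Clec4a2 and Clec4e stay pale.

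The receptors of the Clec4 family form a cluster from Clec4a1 to Clec4e over 368 kb (chr6:122921848-123289870), and the estimates against WT were larger at one end of it than at the other. Clec4a1 and Clec4a3, paralogs at the end of the cluster on the far side of Clec4a2, were the only 2 of 33 other listed C-type lectins called in any comparison. Clec4a3 read 3.74, 2.84, 2.70 and 2.07 TPM in WT, 10.4, 9.35, 12 and 7.71 TPM in Rag2-/- and 3.80, 6.94, 3.99 and 2.95 TPM in NSG. All 4 Rag2-/- libraries were above the other 8, and limma put the log2 difference at 1.51 against WT (SE 0.22, adjusted p = 0.0068) and 1.04 against NSG (adjusted p = 0.0713). Clec4a1 was listed at 0 in WT library 1 and reached 0.985 TPM in WT library 3, against 2.32 to 4.20 TPM in Rag2-/- and 0.453 to 2.38 TPM in NSG. The estimate against WT, 1.56 with an SE of 0.31 (adjusted p = 0.0242 in limma), rested on 0 to 12 recovered reads in WT. Clec4b2, between Clec4a2 and Clec4n, gave 0.52 with an SE of 0.31 (adjusted p = 0.357), at a mean of 1.46 TPM in Rag2-/-. Clec4a4 and Clec4b1 stayed below 1 TPM. Of 50-base stretches of the Clec4a2 transcripts, 6.83% also occur in another gene, mostly Clec4a4, whose own mean did not exceed 0.151 TPM in any host; Clec4d, Clec4e, Clec5a, Clec7a, Clec4a1 and Clec4a3 share none. How reads that fit more than one gene were treated is not given in the sources used here.

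**Figure D4:**
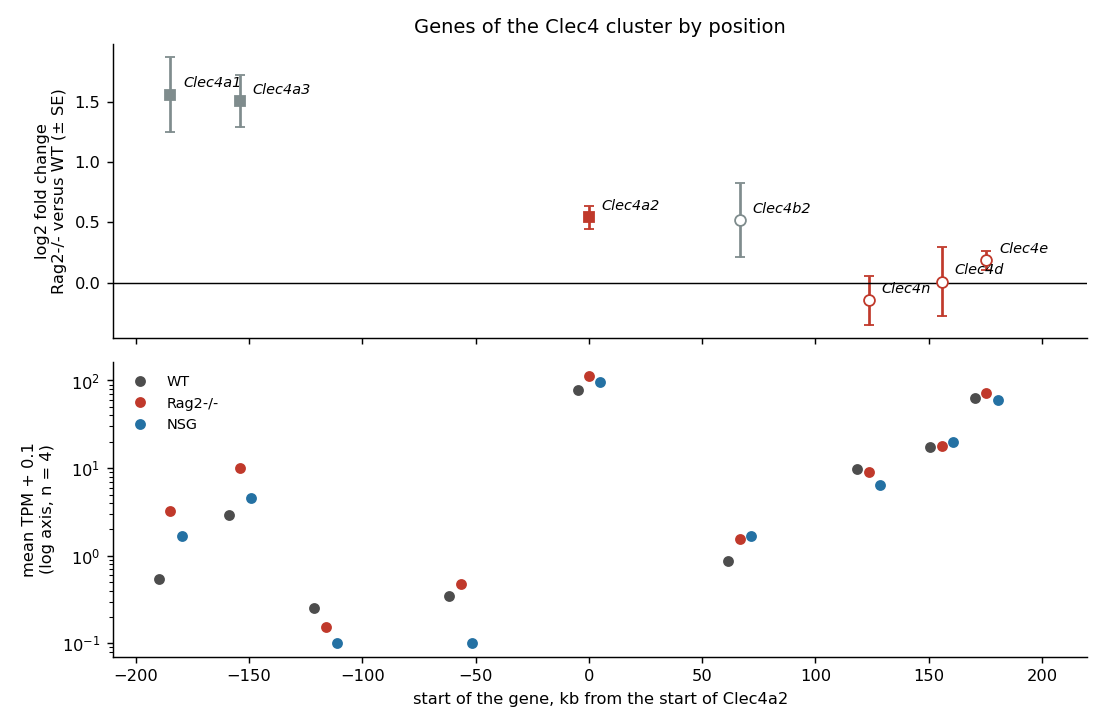
Genes of the Clec4 cluster by the distance of their start from that of Clec4a2 (x axis, kb). The upper panel gives the log2 fold change between Rag2-/- and WT with its SE (receptors of the set in red, other family members in gray, filled squares for an adjusted p below 0.05), at 1.56 for Clec4a1 and 1.51 for Clec4a3, 0.54 for Clec4a2, 0.52 for Clec4b2, -0.15 for Clec4n, 0.01 for Clec4d and 0.19 for Clec4e; the lower panel gives the mean TPM + 0.1 of each host on a log axis.

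Outside that cluster, no neighbor of a receptor was called. Between Clec12a and Clec7a (130 kb apart at their outer ends) lie Clec12b, Clec1b, Clec9a and Clec1a, each with a mean below 1 TPM in every host. Olr1, a scavenger receptor of the same fold that lies next to Clec7a, had means of 81.7, 68.8 and 75.2 TPM in WT, Rag2-/- and NSG (log2 difference between Rag2-/- and WT -0.24, SE 0.25, adjusted p = 0.624 in limma). Cd69, on the other side of Clec12a, had means of 20.2, 13.8 and 15.5 TPM (log2 difference -0.52, SE 0.16, adjusted p = 0.0957). Mgam, the first expressed gene beyond Clec5a, differed by less than 0.01 (adjusted p = 0.997).

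The genes of the proteins that carry the receptors' signal were all expressed. All 24 signalling genes passed the filter, and 1 was called higher in Rag2-/- than in WT (1.14% of all genes) and 0 lower (0.326%). Estimates above 0 were found for 20 of 24 (54.5% of all genes), an unadjusted p below 0.05 for 10 of 24 (20.9%) and all Rag2-/- libraries above all WT libraries for 10 of 24 (10.2%), with a median of 0.12 against 0.02 over all genes. The called gene was Fgr, a Src-family kinase of mature myeloid cells, which read 28.6, 20.8, 25.1 and 27.5 TPM in WT and 39.9, 58.6, 56.6 and 35.9 TPM in Rag2-/- without overlap. The difference of 0.86 passed at an adjusted p of 0.0356 in limma, and in NSG Fgr read 33.0, 26.4, 20.7 and 35.4 TPM. Some other members are named after their values were seen. Lyn, a kinase of the same family, passed the p threshold against WT below the fold limit, at 0.27 (adjusted p = 0.0123). Lyn also passed it against NSG, at 0.33 (adjusted p = 0.0184), and its Rag2-/- libraries (245 to 252 TPM) stood above all from WT (198 to 212 TPM) and from NSG (191 to 211 TPM). The adaptor Fcer1g read 858, 869, 906 and 993 TPM in WT and 1113, 1328, 1429 and 1458 TPM in Rag2-/-, and was not called (0.55, adjusted p = 0.0526). Tyrobp, the adaptor of Clec5a, differed by 0.17 (adjusted p = 0.129), and Syk, at means of 110.0 to 122 TPM, by 0.11 (adjusted p = 0.274). Against NSG, 0 of 24 were called in limma (0.193% of all genes higher and 0.02% lower), 8 of 24 had an unadjusted p below 0.05 (12.6% of all genes), and the median was 0.12 against 0.01 over all genes.

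The 7 inhibitors of the pathway, led by Ptpn6 (means of 397 to 427 TPM) and Dok3, were not called in any comparison, with a median of 0.08 between Rag2-/- and WT. Between those hosts 1.14% of all genes were called higher and 0.326% lower, so that no call among the 7 inhibitors is near the background. One of them, Inpp5d (SHIP1), named after its values were seen, gave 0.20 at an adjusted p of 0.0363 in limma, below the fold limit. Of 11 transcription factors, 9 passed the filter and 1 was called, higher in Rag2-/- than in WT, beside 1.14% of all genes. This was Irf5, which acts on inflammatory cytokine genes after Clec7a and Toll-like receptor signals, at 20.1, 19.2, 22.1 and 20.9 TPM in WT and 32.3, 30.1, 42.1 and 27.1 TPM in Rag2-/- (0.63, adjusted p = 0.0309). In NSG, Irf5 read 17.9, 22.6, 26.2 and 23.6 TPM, below every Rag2-/- library, but the difference did not pass (0.52, adjusted p = 0.130). Nfatc1, also named afterwards, gave 0.37 at an adjusted p of 0.0118, below the fold limit, and the 5 NF-kB genes lay between -0.14 and 0.10.

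No output gene of the pathway was called. Of 18 listed cytokine and inflammasome genes, 10 passed the filter and 0 were called in limma in any comparison. Between Rag2-/- and WT, 1.14% of all genes were called higher, so that no call among 10 genes is near the background, and 3 of 10 had an unadjusted p below 0.05 (20.9% of all genes). Cxcl1 and Csf2 were listed at 0 in every library, and Il6, Il10 and Il12b had means below 0.14 TPM. Of the 7 proteins listed as ligands or partners, 2 of the 6 tested were called higher in Rag2-/- than in WT, beside 1.14% of all genes. Vim (vimentin), a filament protein of motile cells that has been described as a ligand of Clec7a, read 288, 241, 264 and 238 TPM in WT and 402, 409.7, 487 and 384 TPM in Rag2-/- (0.70, adjusted p = 0.0170). Anxa1, one of the annexins that Clec7a binds on dying cells, read 128, 81.1, 102 and 95.4 TPM in WT and 184, 204, 214 and 161 TPM in Rag2-/- (0.91, adjusted p = 0.0068). Both sets of libraries were without overlap, and neither gene passed against NSG (0.45 and 0.66, adjusted p = 0.153 and 0.0609). Sap130, the nuclear ligand of Clec4e, differed by 0.21 (adjusted p = 0.156).

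**Figure D5:**
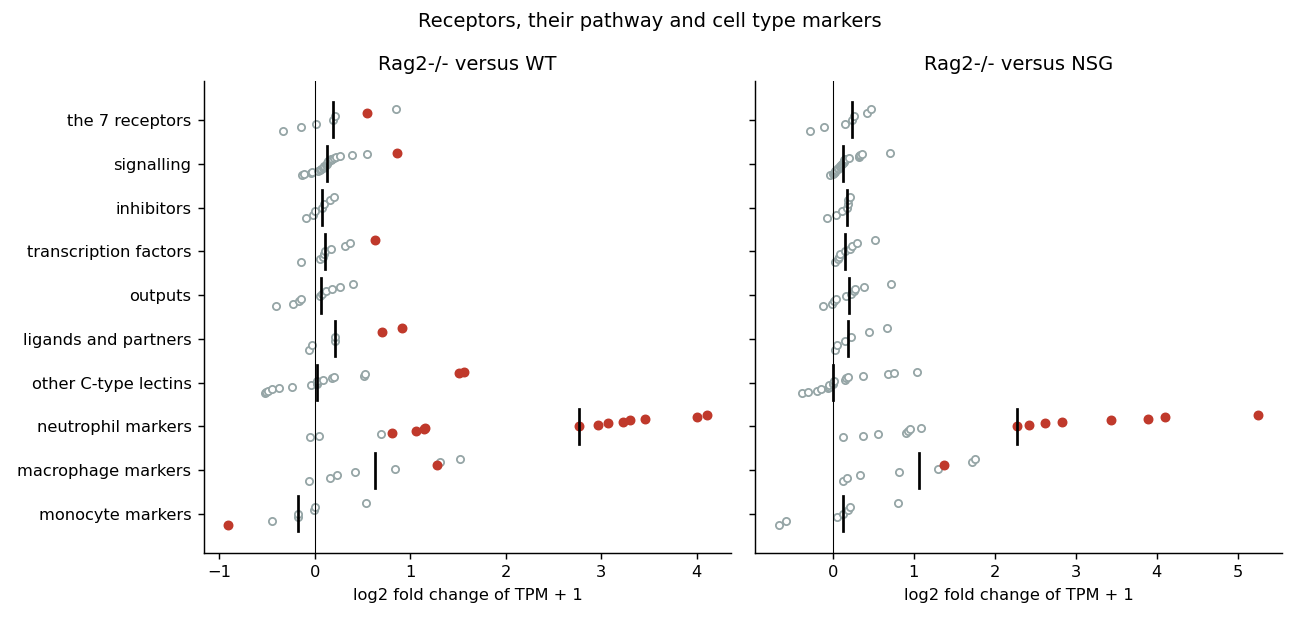
Log2 fold change of TPM + 1 (x axis) of every tested gene of each list (y axis), for Rag2-/- versus WT (left) and versus NSG (right), with called genes as filled red points and a black line at the median of each list. In Rag2-/- versus WT the receptor and pathway lists have medians of 0.02 to 0.21 and 0 to 2 called genes each, with no called gene in Rag2-/- versus NSG, while the neutrophil markers have medians of 2.76 and 2.27.

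Of the 33 other C-type lectins, 17 had a mean of at least 1 TPM and 4 were at 0 in every library. Their median between Rag2-/- and WT was 0.02, against 0.02 over all genes. An unadjusted p below 0.05 was found for 9 of 17 (20.9% of all genes), with estimates of either sign, and the 2 of 17 called higher, Clec4a1 and Clec4a3, stood beside 1.14% of all genes. All Rag2-/- libraries lay above all WT libraries for 3 of 17 (10.2% of all genes) and below them for 4 of 17 (6.72%). Those 4 were Mgl2 (means of 308 TPM in WT and 215 TPM in Rag2-/-), Cd93, Clec2d and Cd69, and 0 of 17 were called lower (0.326% of all genes). Between Rag2-/- and NSG, 0 of 17 were called in limma (0.193% of all genes higher and 0.02% lower), and 6 of 17 had an unadjusted p below 0.05 (12.6%).

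The genes whose levels ran most like each receptor over the 12 libraries, among 15000 others, are given as a description. All libraries come from one leukemia line, and these genes share with the receptors the hosts, the sort and the depth of each library. Clec5a was followed most closely by Bhlhe40 (Pearson's r 0.98), Cd300lf (0.96) and Olfml2b (0.96), and Clec4a2 by Mirt1 (0.96), Ptprt (0.95) and Cd300lf (0.95). Cd300lf, an inhibitory receptor of myeloid cells, was the only gene named for more than 1 receptor. Clec4e ran with Aph1b (0.96), Mfsd6 (0.96) and Tlr7 (0.90), and Clec12a with Herc6 (0.95), Gstm1 (0.93) and Cd24a (0.93). The closest genes were Ankrd28 for Clec7a (0.92), Ehd4 for Clec4n (0.89) and Gm25395 for Clec4d (0.89). No receptor was among the 3 genes most like another.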

How the data were processed

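GFP+ MLL-AF9 cells from 12 mice, 4 per host, were sequenced as poly-A RNA with paired ends. On Galaxy the authors ran HISAT2 against mm10, took gene counts and deposited TPM values for 55401 genes in 12 libraries, each summing to 1000000. The counting tool and annotation are not given in the sources used here. With exon lengths of GENCODE M21, 98.8% to 99.1% of values under 20 reads were whole numbers of reads within 0.05, so depth was recovered from the spacing. A symbol was matched to 55141 genes, and 27734 genes were at 0 throughout. The 15026 genes averaging 1 TPM or more were fitted as log2(TPM + 1) in limma 3.58.1 (R 4.3.3, trend, one fit of the 12 libraries), and fold changes are on that scale, which understates changes of low genes. P-values were adjusted by Benjamini-Hochberg over all genes tested. A gene was called at an adjusted p below 0.05 and a log2 fold change beyond 0.5 in either direction. Tested on simulated data with 200 of 15026 genes changed between Rag2-/- and WT, the fit recovered 87% of 2-fold and 94% of 4-fold changes. Changes below 2-fold, which include every receptor estimate given here, were not simulated. Named genes were the 7 receptors, called genes of the pathway and marker lists, chromosomal neighbors and the 3 genes most like each receptor by Pearson's r. The members and lists were chosen with earlier results of these data known. Alternatives changed the pseudocount, filter, scaling, trend, libraries fitted, replicate block and fold limit, or left out each library in turn. One alternative, voom on recovered reads, was chosen after the data were seen.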

Additional observations from a re-analysis of the deposited data

Results flagged for a closer look

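Clec5a in the NSG libraries was the only value among the 7 receptors in 3 hosts that Dixon's rule flagged. Library 3 read 37.5 TPM against 18.2 to 20.6 TPM in the other 3, and its gap to the nearest of them was 0.877 of the whole range of the group, above Dixon's critical value for 4 samples. With 21 groups of libraries examined, chance alone would give about 1.05 such flags. In log2(TPM + 1), NSG library 3 stood farther from its host mean for Clec4d (0.82) and Clec12a (-0.78) than for Clec5a (0.67), without a flag for either. Without this library the difference between Rag2-/- and NSG was 0.69 instead of 0.47, and that between NSG and WT was 0.16 instead of 0.39.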

How the results depend on the processing

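The count of receptors called between Rag2-/- and WT was 1. It was 2 (Clec4a2 and Clec5a) with genes at 1 TPM or more in every library, with the 8 libraries alone, with the replicate block and in voom on recovered reads, and ran from 0 to 2 when a library was left out. It fell to 0 without WT library 2, Rag2-/- library 2 or Rag2-/- library 3 and rose to 2 without NSG library 3. The counts for Rag2-/- versus NSG and NSG versus WT stayed at 0 throughout the alternatives run. The replicate numbers did not pair the samples (correlations of same-numbered libraries from -0.091 to 0.032 over 12 pairs), and the block, which gave Clec5a an adjusted p of 0.0401 in limma, is no sign of pairing. Over all genes, the calls between Rag2-/- and WT went from 172 higher and 49 lower to 91 and 23 with all genes above 0, 239 and 116 with the 8 libraries alone and 186 and 98 in voom, and those between Rag2-/- and NSG from 29 and 3 to 4 and 2 with the 8 libraries alone.

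Of 441 single-gene comparisons with an alternative, 418 kept their direction and side of the threshold. Signs turned only for estimates near 0. For Rag2-/- versus WT, Clec4d became -0.036 with quantile normalization and -0.013 with median-ratio scaling, and ran from -0.10 to 0.23 with a library left out, and Clec4n from -0.29 to 0.016. For Rag2-/- versus NSG, Clec4d ran from -0.24 to 0.16. For NSG versus WT, the ranges with a library left out were -0.16 to 0.27 for Clec4d, -0.050 to 0.20 for Clec7a and -0.16 to 0.22 for Clec12a. The cause of these changes was not tested. With 4 libraries a host, the interval of Clec4d between Rag2-/- and WT ran from -0.61 to 0.63, so differences of that size were not detectable for it.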
